A study of Mus musculus with 8 samples.

Results

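The genes Srebf1, Mlxipl, Thrsp, Mid1ip1, Acly, Acaca, Acacb, Fasn, Scd1 and Me1 are enzymes and regulators of hepatic de novo lipogenesis. They were chosen by name for these roles, with earlier results of these data known. All 10 were found among the 16790 genes that the deposited tables list and passed the filter on low counts. De novo lipogenesis turns surplus carbohydrate into fatty acids in the cytosol of the hepatocyte. ATP citrate lyase (Acly) makes acetyl-CoA from citrate, the acetyl-CoA carboxylases (Acaca, Acacb) make malonyl-CoA, fatty acid synthase (Fasn) builds palmitate with NADPH that malic enzyme (Me1) helps to supply, and stearoyl-CoA desaturase (Scd1) converts saturated into monounsaturated fatty acids. Transcription of these enzymes is driven in liver by SREBP-1c, a product of Srebf1 that responds to insulin, and by ChREBP, the product of Mlxipl that responds to sugar. Thrsp (Spot 14) and its paralogue Mid1ip1 (MIG12) encode small proteins that promote lipogenesis, MIG12 by binding acetyl-CoA carboxylase.

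RNA was sequenced from whole liver of 4 wild type mice (WT; mice 164, 165, 166 and 167) and 4 mice with a liver-specific knockout of E4bp4 (E4bp4-LKO; mice 143, 144, 145 and 179). E4bp4 is the gene Nfil3, whose protein represses transcription from D-box sites and belongs to the circadian clock. Both groups were 2 months old when they were put on a diet that induces non-alcoholic steatohepatitis (NASH), and both received it for 20 weeks. The mice were housed in alternating light and dark with free access to water and food. Strain, sex, the driver of the deletion, and the hour and feeding state at collection were not stated with the samples used here.

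Each library held 23805540 to 32290265 estimated counts. Levels are CPM, counts scaled to a common library size, after TMM scaling, a correction for library composition, unless FPKM is named. Nfil3, the targeted gene, measured 8.79 to 16.5 CPM in WT and 3.33 to 6.23 CPM in E4bp4-LKO livers, without overlap and in the direction of the labels (log2 fold change -1.35, SE 0.25, edgeR adjusted p = 0.0122). An exact two-sided permutation test of its level gave p = 0.0286, the smallest p that 70 arrangements allow. Of 13240 genes tested, 10.9% passed an adjusted p of 0.05 between the groups, 4.38% higher and 6.49% lower in E4bp4-LKO. The libraries carry separate numbers, taken here as separate mice, and the p-values measure the spread between them.

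The 4 regulators and cofactors had higher mean levels in E4bp4-LKO livers, and 3 of them passed the test, whereas the mRNA of none of the 6 enzymes did. Among all 10 genes, 3 rose (Thrsp, Mlxipl and Mid1ip1), 0 fell and 7 did not pass, beside 4.38% of all genes tested that rose. The median log2 fold change was 0.11 over the 10 genes, 0.64 over the 4 regulators and -0.09 over the 6 enzymes, beside 0.01 over all genes tested. The median over the 10 turned with the scaling, to -0.041 on library totals and -0.090 on log2(FPKM + 1). The summed level of 9 hepatocyte markers was also higher apart from a narrow overlap (66003 to 84530 CPM in WT, 84333 to 105926 CPM in E4bp4-LKO), and its part in this result was not tested. The levels of the 3 genes that rose did not overlap between the groups, a pattern with all E4bp4-LKO livers above all WT livers that 8.8% of all genes tested showed.

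**Figure D1:**
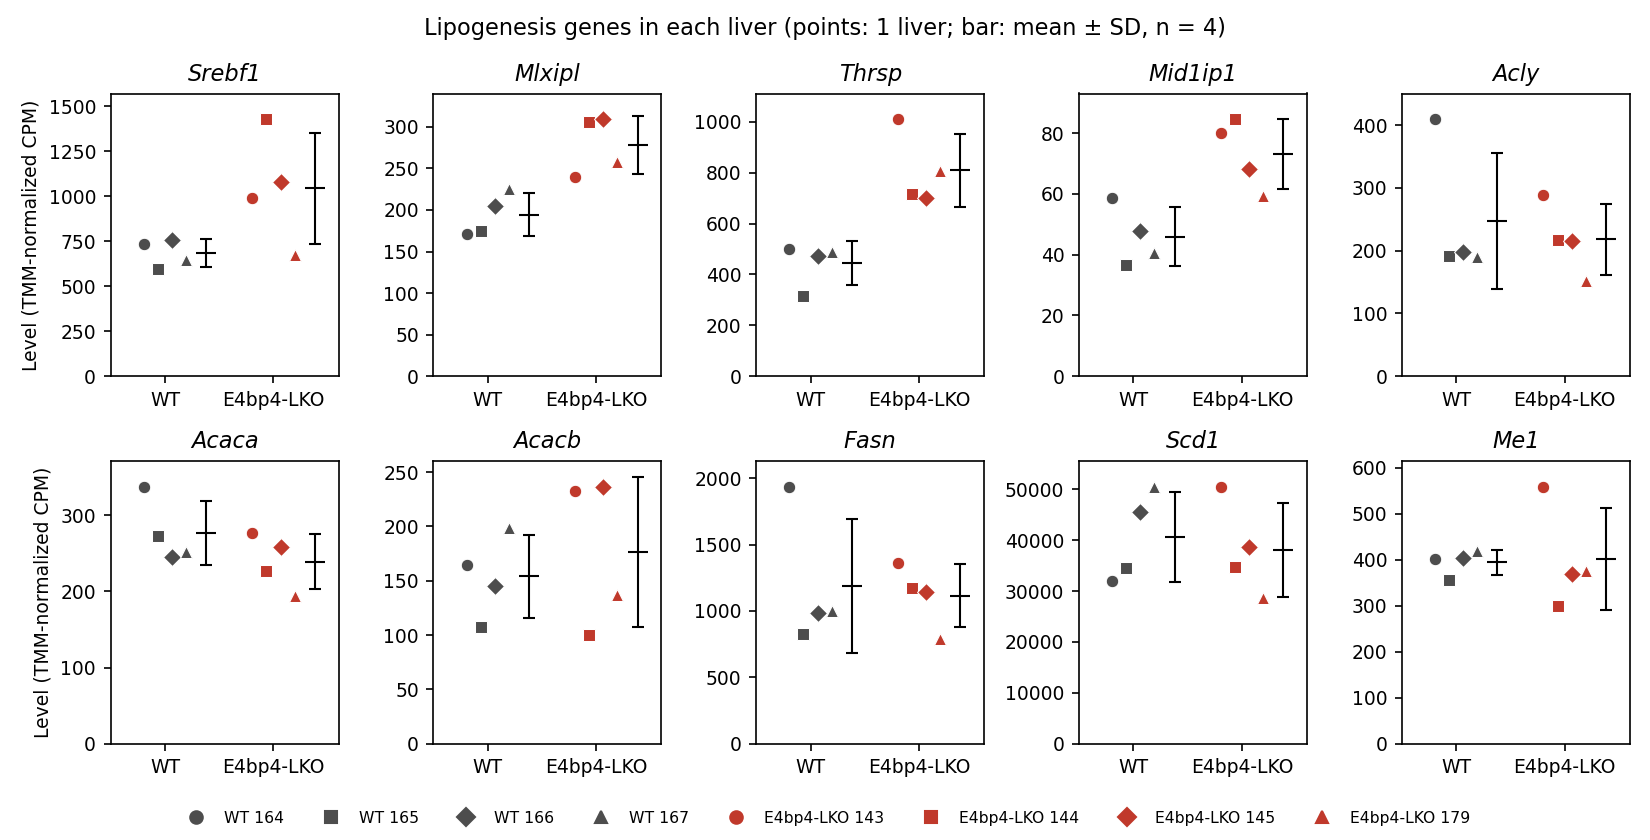
Level of each of the 10 genes in each liver in TMM-normalized CPM (vertical axis, linear and starting at 0), with WT in grey and E4bp4-LKO in red. Each point is 1 liver and each bar is the mean ± SD of 4 livers; Thrsp, Mlxipl and Mid1ip1 separate the groups, Srebf1 overlaps only through E4bp4-LKO 179, and WT 164 stands far above the other WT livers for Acly and Fasn.

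The promoters of the 3 genes that rose are shown with that of Fasn, an enzyme that did not, as an example. These few windows cannot tell genes that rose from genes that did not. RefSeq (GRCm38.p6) promoter windows were matched for 9 of the 10 genes, with 13 starts in all, and Scd1 was not matched. The 250 bases before each start are printed 5′ to 3′ on the strand of the gene, with capitals for any match to the motifs searched. They are chr7:97417551-97417800 (minus strand) for Thrsp, chrX:10717115-10717364 (plus) for Mid1ip1, chr5:135089640-135089889 and chr5:135106641-135106890 (plus) for the upstream and downstream start of Mlxipl, and chr11:120824548-120824797 (minus) for Fasn.
Thrsp: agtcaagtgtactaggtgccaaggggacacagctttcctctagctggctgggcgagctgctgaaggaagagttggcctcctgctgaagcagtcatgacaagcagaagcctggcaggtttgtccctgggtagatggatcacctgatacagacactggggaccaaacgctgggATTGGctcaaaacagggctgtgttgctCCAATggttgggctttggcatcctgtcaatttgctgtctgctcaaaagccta
Mid1ip1: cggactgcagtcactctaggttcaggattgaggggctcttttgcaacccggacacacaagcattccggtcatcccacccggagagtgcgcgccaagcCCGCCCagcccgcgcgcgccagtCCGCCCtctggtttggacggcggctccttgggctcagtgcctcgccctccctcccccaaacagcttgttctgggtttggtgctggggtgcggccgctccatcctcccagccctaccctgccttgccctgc
Mlxipl upstream start: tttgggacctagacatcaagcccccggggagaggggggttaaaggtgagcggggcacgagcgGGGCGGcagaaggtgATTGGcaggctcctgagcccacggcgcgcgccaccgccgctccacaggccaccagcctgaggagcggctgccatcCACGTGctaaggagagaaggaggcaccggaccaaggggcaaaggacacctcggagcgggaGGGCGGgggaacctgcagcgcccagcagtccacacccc
Mlxipl downstream start: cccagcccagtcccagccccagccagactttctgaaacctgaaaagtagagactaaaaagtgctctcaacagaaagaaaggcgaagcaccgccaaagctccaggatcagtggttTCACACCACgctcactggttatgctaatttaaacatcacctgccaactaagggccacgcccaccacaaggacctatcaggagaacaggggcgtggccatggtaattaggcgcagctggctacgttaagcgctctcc
Fasn: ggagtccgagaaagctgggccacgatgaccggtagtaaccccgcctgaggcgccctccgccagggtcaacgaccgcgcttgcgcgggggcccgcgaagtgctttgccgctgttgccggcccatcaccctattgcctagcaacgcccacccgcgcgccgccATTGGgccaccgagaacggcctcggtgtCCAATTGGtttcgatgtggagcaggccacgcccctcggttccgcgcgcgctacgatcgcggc

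The motifs were searched on both strands. They were TCACNCCAC, the core of sterol regulatory elements, CACGTG, the E-box found in carbohydrate response elements, CCAAT, the box bound by NF-Y, GGGCGG, the GC box, and TTATGTAA and TTACGTAA, forms of the D-box that E4BP4 binds. CACGTG reads the same on both strands and was counted once, and CCAAT matches on opposite strands may share an edge, as in Fasn. Among 32851 windows of this length in the table, 1.05% held TCACNCCAC, 6.02% CACGTG, 33.8% CCAAT, 32.7% GGGCGG, 0.819% TTATGTAA and 0.113% TTACGTAA. Thrsp held CCAAT boxes 79 and 52 bases before its start, Mid1ip1 held 2 GC boxes, and Fasn held 3 CCAAT boxes, 90, 62 and 59 bases before its start. The upstream Mlxipl window held an E-box 98, a CCAAT box 173, and GC boxes 188 and 38 bases before its start. The downstream Mlxipl window held TCACACCAC 136 bases before its start. Neither D-box form was present in any of the 13 windows, which says only that these letters are not in these 250 bases.

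Thrsp had the largest fold change of the regulators. It measured 499.7, 316, 472 and 488 CPM in WT livers 164 to 167, and 1010.1, 717, 701 and 806 CPM in E4bp4-LKO livers 143, 144, 145 and 179. Every E4bp4-LKO liver lay above the highest WT liver, and WT 165 was well below the other WT livers. The means were 444 ± 86.0 and 808 ± 142 CPM (SD, n = 4), a 1.82-fold higher level (log2 fold change 0.87, SE 0.16, edgeR adjusted p = 0.0110; 95% interval of the fold 1.42 to 2.34). Thrsp passed in each of the 8 fits with 1 liver left out and in each of the 10 other fits (adjusted p up to 0.0430).

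Mid1ip1, the paralogue of Thrsp, promotes the polymerisation of acetyl-CoA carboxylase. WT livers measured 58.8, 36.6, 47.7 and 40.5 CPM, and E4bp4-LKO livers 80.2, 84.6, 68.2 and 59.2 CPM, each in the order of mice used above. The groups were separated narrowly, since the lowest E4bp4-LKO liver (179) lay just above the highest WT liver (164). The means were 45.9 ± 9.74 and 73.0 ± 11.5 CPM (SD, n = 4), with a log2 fold change of 0.67 (SE 0.15, edgeR adjusted p = 0.0249). In FPKM, which is scaled to the library total, the groups overlapped (highest WT 33.1, lowest E4bp4-LKO 27.0 FPKM), and scaling the counts by library totals gave an adjusted p of 0.0836. Leaving out WT 165 (adjusted p = 0.0625) or E4bp4-LKO 144 (0.0747) also ended the call.

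Mlxipl encodes ChREBP, which pairs with MLX and binds carbohydrate response elements of lipogenic and glycolytic genes. It measured 171, 175, 205 and 225 CPM in WT and 239, 305, 309 and 258 CPM in E4bp4-LKO livers. All E4bp4-LKO livers were above all WT livers in CPM and also in FPKM (highest WT 60.2, lowest E4bp4-LKO 62.5 FPKM). The means were 194 ± 25.7 and 278 ± 34.8 CPM (SD, n = 4), a 1.43-fold higher level (log2 fold change 0.52, SE 0.12, edgeR adjusted p = 0.0226). The call was lost without WT 165 (adjusted p = 0.0719), E4bp4-LKO 144 (0.0726) or E4bp4-LKO 145 (0.0623), and without WT 164 and 165 together (0.119). The tables list 1 transcript for the gene, so ChREBP forms from separate promoters were not told apart.

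Srebf1, the source of SREBP-1c and SREBP-1a, did not pass. It measured 736, 593, 758 and 646 CPM in WT livers, and 989, 1427, 1080.2 and 675 CPM in E4bp4-LKO livers. In the knockout group 3 livers lay above every WT liver, while E4bp4-LKO 179 lay within the WT range. The means were 683 ± 77.4 and 1043 ± 309 CPM (SD, n = 4), with a log2 fold change of 0.61 (SE 0.19, edgeR adjusted p = 0.0682). DESeq2 called it (adjusted p = 0.0114), and so did edgeR without E4bp4-LKO 179 (log2 fold change 0.77, adjusted p = 0.0219). Its log2 fold change was 0.42 without E4bp4-LKO 144, the highest liver. The counts of Srebf1 and of Scd1 were fractional in all 8 libraries (for the other genes, in at most 1 library). The tables list 1 Srebf1 transcript, so SREBP-1a and SREBP-1c were not told apart.

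**Figure D2:**
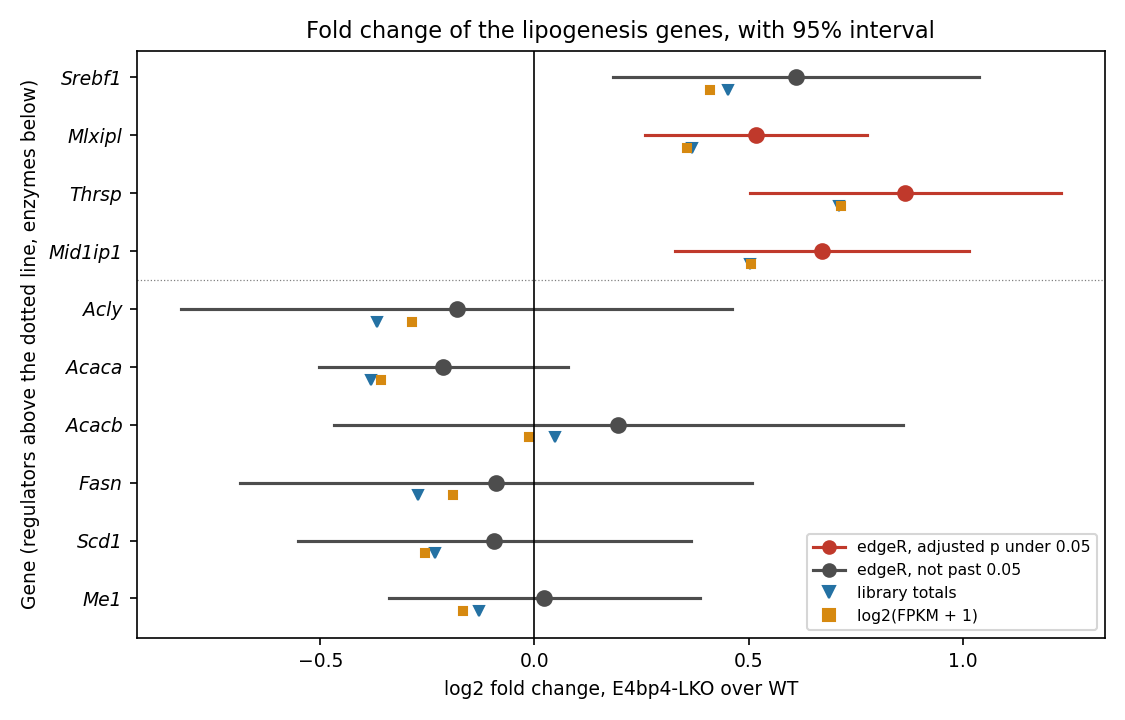
Log2 fold change of E4bp4-LKO over WT (horizontal axis) for each gene, with the edgeR estimate as a circle, its unadjusted 95% interval as a line, library totals as triangles and log2(FPKM + 1) as squares. The 4 regulators lie right of 0 under all 3 scalings, from 0.36 (Mlxipl, FPKM) to 0.87 (Thrsp, edgeR), while the intervals of all 6 enzymes include 0.

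No enzyme difference between the groups exceeded the spread of the livers. Of 6 enzymes, 0 rose and 0 fell by edgeR, 0 had an unadjusted p under 0.05, and DESeq2 called 0. All 6 overlapped between the groups. Over all genes tested, 10.9% passed by edgeR and 18.5% did not overlap, in either direction, so most genes gave the same outcome as the enzymes.

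Fasn, which makes palmitate, measured 1936, 829, 986 and 1002 CPM in WT livers 164 to 167, and 1358, 1174, 1143 and 789 CPM in E4bp4-LKO livers 143, 144, 145 and 179. WT 164 stood far above the next WT liver, and the other WT livers lay within the range of the knockouts. The means were 1188 ± 505 and 1116 ± 238 CPM (SD, n = 4; log2 fold change -0.09, SE 0.27, edgeR adjusted p = 0.864; 95% interval of the fold 0.621 to 1.42). Without WT 164 the log2 fold change turned to 0.25 (adjusted p = 0.397).

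Acly, which supplies cytosolic acetyl-CoA, also had its highest value in WT 164. It measured 409.6, 191, 199 and 190.5 CPM in WT and 289, 217, 216 and 151 CPM in E4bp4-LKO livers. That liver was above all others, and the 3 other WT livers lay between E4bp4-LKO 179 and the other knockouts. The log2 fold change was -0.18 (SE 0.28, edgeR adjusted p = 0.730; 95% interval of the fold 0.564 to 1.38), and 0.18 without WT 164 (adjusted p = 0.620).

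The acetyl-CoA carboxylases catalyse the committed step, Acaca for synthesis in the cytosol and Acacb at the mitochondrial membrane, where malonyl-CoA restrains fatty acid oxidation. Acaca measured 338, 273, 245 and 253 CPM in WT and 277, 227, 259 and 194 CPM in E4bp4-LKO livers, with WT 164 highest and E4bp4-LKO 179 lowest of the 8. Its log2 fold change was -0.21 (SE 0.13, edgeR adjusted p = 0.322; 95% interval of the fold 0.705 to 1.05). Acacb measured 164, 107, 145 and 199 CPM in WT and 232, 99.9, 237 and 136 CPM in E4bp4-LKO livers. E4bp4-LKO 143 and 145 lay above every WT liver, 144 below every WT liver and 179 among them. Its log2 fold change was 0.20 (SE 0.29, edgeR adjusted p = 0.717; 95% interval of the fold 0.723 to 1.82).

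Scd1 was by far the most abundant of the 10 transcripts and took 2.69% to 4.97% of all counts in a library. It measured 32002, 34505, 45546 and 50512 CPM in WT and 50479, 34663, 38614 and 28617 CPM in E4bp4-LKO livers. The highest knockout lay just under the highest WT liver, and the lowest of the 8 was E4bp4-LKO 179. The log2 fold change was -0.09 (SE 0.21, edgeR adjusted p = 0.816; 95% interval of the fold 0.682 to 1.29). Me1 measured 402, 355, 402 and 418 CPM in WT and 558, 299.7, 369 and 375 CPM in E4bp4-LKO livers. E4bp4-LKO 143 was the highest and 144 the lowest of the 8, and the WT livers lay close together between them (coefficient of variation 6.96% in WT and 27.6% in E4bp4-LKO). The log2 fold change of Me1 was 0.02 (SE 0.16, edgeR adjusted p = 0.946; 95% interval of the fold 0.791 to 1.31).

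**Figure D3:**
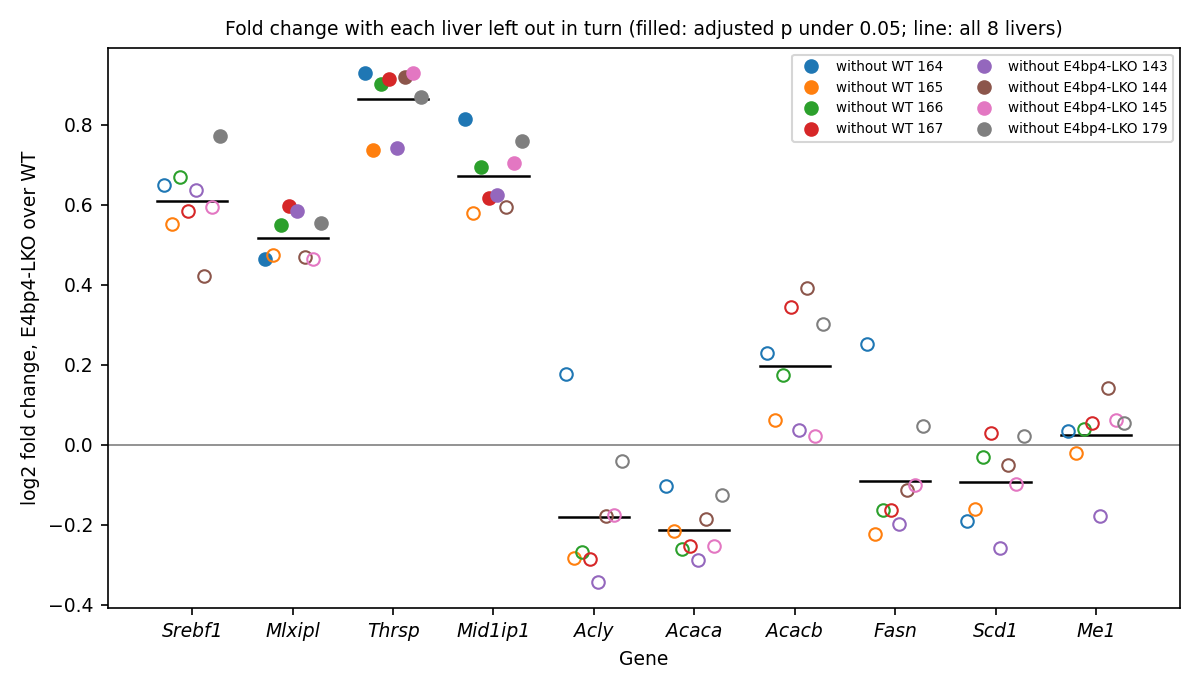
Log2 fold change of each gene (vertical axis) in the 8 edgeR fits that leave out 1 liver (colours), filled where the adjusted p was under 0.05, with a black line for all 8 livers. Thrsp was filled in all 8 fits and ran from 0.74 to 0.93, while Acly and Fasn crossed 0 when WT 164 was left out.

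Because both sets were measured in the same libraries, their ratio does not depend on how libraries are scaled. The mean log2 FPKM of the 4 regulators minus that of the 6 enzymes was -0.52, -0.37, -0.18 and -0.36 in WT livers 164 to 167, and 0.02, 0.73, 0.24 and 0.45 in E4bp4-LKO livers 143, 144, 145 and 179. The difference was higher in every knockout than in every WT liver, and it remained so without Scd1 (0.58 to 1.09 in WT, 1.24 to 1.96 in E4bp4-LKO). As a single pair, the FPKM of Thrsp over that of Fasn was 2.52, 3.72, 4.67 and 4.75 in WT and 7.26, 5.96, 5.99 and 9.97 in E4bp4-LKO livers. No test is given for these ratios, since the genes were grouped with their values known.

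Per transcript length, the order of levels ran from Scd1 at a mean of 8016 FPKM over the 8 livers through Thrsp (597), Srebf1 (197), Me1 (121), Fasn (116), Mlxipl (63.4), Acly (53.0), Mid1ip1 (28.7) and Acaca (28.4) to Acacb (19.1 FPKM). Scd1 ranked number 4 of all 16790 genes listed. By their means, some neighbours changed places between the groups. Acly had the higher mean FPKM in WT (59.8 against 55.3 for Mlxipl, with overlap). That mean included WT 164 at 106 FPKM, and Mlxipl was above Acly in 3 of the 4 WT livers. In E4bp4-LKO livers every Mlxipl value (62.5 to 79.3) lay above every Acly value (31.8 to 62.1 FPKM). Mid1ip1 was below Acaca in each of the 4 WT livers (means 23.7 and 32.1 FPKM) and above it in each of the 4 E4bp4-LKO livers (33.6 and 24.7 FPKM), although their ranges overlapped in both groups. Me1 and Fasn overlapped in both groups. The 10 genes together took 3.02% to 5.34% of the counts of a library, and without Scd1 they took 0.312% to 0.546%, with WT 164 the highest.

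Livers also differed within a group across several of the 10 genes. E4bp4-LKO 143 was the highest of its group for 6 of the 10 genes, 5 of them enzymes, and E4bp4-LKO 179, the library with the fewest counts, was the lowest for 6. In WT, 164 was the highest for 5 genes and 165 the lowest for 6. TMM factors were 1.16 in WT 164 and 1.09 in WT 165, and 0.941 to 1.00 elsewhere. Over all genes tested the median log2 fold change was -0.15 on library totals and 0.01 with TMM. Among the 10 genes, Me1 turned from 0.02 to -0.13 (adjusted p = 0.617), and Acacb turned to -0.01 on log2(FPKM + 1) (adjusted p = 0.982).

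Cell type markers moved with the groups as well. All 9 hepatocyte markers listed (of 10) had estimates above 0, with a median log2 fold change of 0.20, and 1 rose (Serpina1c, one of a family of near-identical copies among which reads may be split). The 10 stellate cell markers summed to 843 to 1644 CPM in WT and 526 to 737 CPM in E4bp4-LKO livers (5 fell, 0 rose). The 10 macrophage markers summed to 691 to 1031 and 513 to 702 CPM (4 fell, 0 rose). The macrophage markers did not move as 1, with 8 edgeR estimates below 0 and 2 above. DESeq2 called 5 of them lower and 1 higher. Timd4 was at most 4.28 CPM in WT and at least 4.41 CPM in E4bp4-LKO livers. The 8 cholangiocyte markers summed to 211 to 498 and 98.7 to 129 CPM (1 fell, 0 rose, of 6 tested). The 8 endothelial markers summed to 220.4 to 260 CPM in WT and 222 to 332 CPM in E4bp4-LKO livers (1 rose, 0 fell), and the 9 lymphocyte markers listed to 27.4 to 40.7 and 21.8 to 33.7 CPM (none passed by edgeR or DESeq2, and 1 had an unadjusted p under 0.05). The part of tissue composition in the regulators' rise was not tested, and in whole liver fewer cells of a type and less RNA per cell cannot be told apart. Fat tissue expresses the same lipogenic genes. The 7 adipocyte markers listed (of 8) summed to 37.1 to 142 CPM in WT and 134 to 232 CPM in E4bp4-LKO livers. Of the 4 tested, 0 passed by edgeR, 2 had an unadjusted p under 0.05 and DESeq2 called 2 higher. Most of that sum came from Cidea, Lipe and Cfd, and Cfd alone ranged from 0.636 to 20.0 CPM in WT and from 19.2 to 162 CPM in E4bp4-LKO livers. In the same list, Adipoq, Plin1 and Retn were at most 0.0446, 0.0329 and 0.0700 CPM in any liver, below the level of 3 counts (0.0929 to 0.126 CPM), and Lep was not listed. The adipocyte markers thus did not move as 1, and the part of fat tissue in these levels was not tested.

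Around the 10 genes, 12 of 157 genes tested in 10 lists passed (7.64%), beside 10.9% of all genes. Of these 12, 8 were higher and 4 lower in E4bp4-LKO, but library totals gave 4 higher and 15 lower, and log2(FPKM + 1) 3 and 16. Of 14 genes that process or activate SREBP, 1 rose, 0 fell and 13 did not pass, with a median log2 fold change of 0.10. The gene that rose was Mbtps1, the site-1 protease that cleaves SREBP precursors in the Golgi (75.5 ± 1.94 in WT and 89.2 ± 4.40 CPM in E4bp4-LKO, SD, n = 4; log2 fold change 0.24, SE 0.06, edgeR adjusted p = 0.0378). Of the 8 fits without 1 liver only that lacking E4bp4-LKO 143 called it (adjusted p up to 0.106), and not on library totals (0.423). Of 15 genes for the ChREBP partner, its targets and sugar use, none passed by edgeR, 3 had an unadjusted p under 0.05 and DESeq2 called 3 lower, with a median of -0.04. The smallest p was that of Txnip, a glucose-responsive ChREBP target (125 ± 19.8 and 93.8 ± 12.6 CPM; log2 fold change -0.42, adjusted p = 0.0557), which passed in DESeq2 (0.0185) and on library totals (0.0128).

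Genes that supply carbon and reducing power, or restrain acetyl-CoA carboxylase, gave 2 calls. Of 17 genes for citrate, acetyl-CoA and NADPH supply, 1 fell, 0 rose and 16 did not pass, with a median of 0.03. Pgd, an NADPH-producing enzyme of the pentose phosphate pathway, fell (WT 92.6 ± 10.9, E4bp4-LKO 64.6 ± 14.5 CPM, SD, n = 4; log2 fold change -0.52, edgeR adjusted p = 0.0460). Its groups overlapped, and of the 8 fits without 1 liver only that lacking E4bp4-LKO 143 called it (adjusted p up to 0.122). Of 12 genes for AMP-activated kinase and other regulators of the carboxylase, 1 rose, 0 fell and 11 did not pass, with a median of 0.02. Prkaa2, a catalytic subunit of that kinase, rose (WT 86.9 ± 5.87, E4bp4-LKO 113 ± 8.65 CPM; log2 fold change 0.38, SE 0.08, edgeR adjusted p = 0.0147) and passed without each liver in turn, but not on library totals (log2 fold change 0.22, adjusted p = 0.146).

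**Figure D4:**
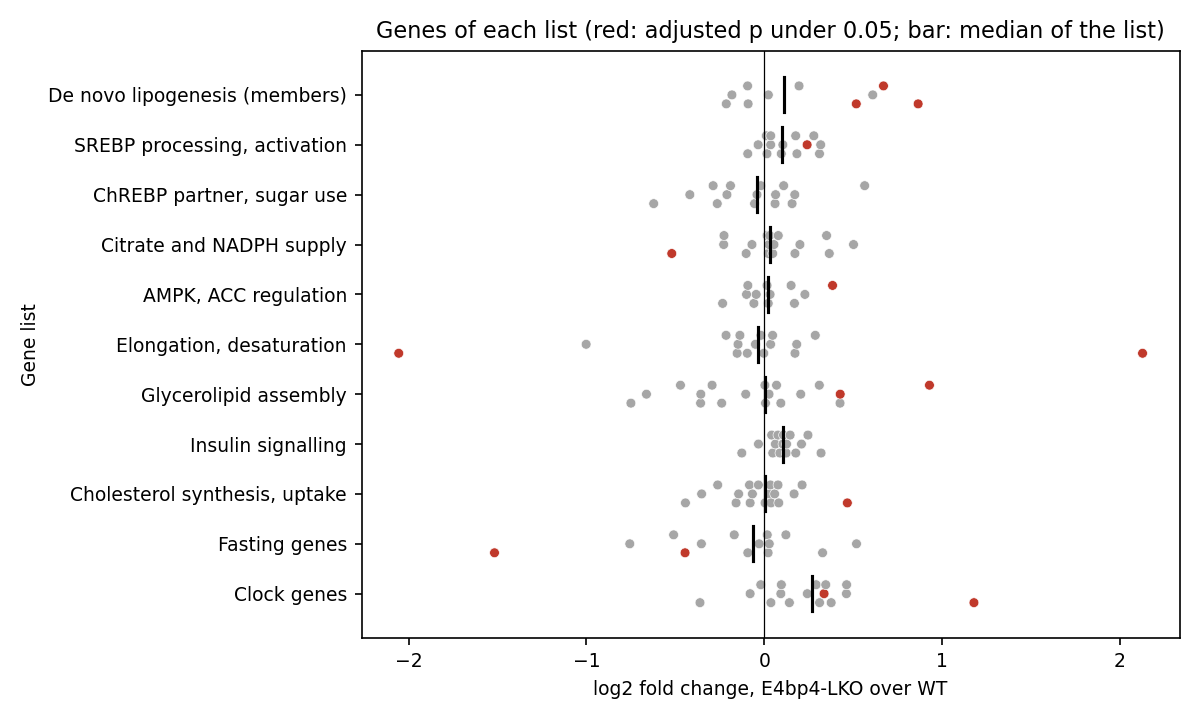
Log2 fold change of E4bp4-LKO over WT (horizontal axis) of each tested gene in the 10 lipogenesis genes and the lists around them (rows), red where the edgeR adjusted p was under 0.05, with a bar at the median of each list. Medians lie between -0.06 (fasting genes) and 0.27 (clock genes), and the widest single values are those of Elovl3 (2.13) and Elovl7 (-2.06).

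Downstream of palmitate, 4 of 34 genes tested passed in 2 lists (11.8%, beside 10.9% of all genes). Of 16 elongases and desaturases beside Scd1, 1 rose, 1 fell and 14 did not pass, with a median of -0.03. Elovl3, an elongase of saturated and monounsaturated very long chain fatty acids, rose (WT 22.6 ± 9.68, E4bp4-LKO 98.5 ± 17.3 CPM, SD, n = 4; log2 fold change 2.13, SE 0.30, edgeR adjusted p = 0.00554). Elovl7 fell (WT 6.46 ± 3.80, E4bp4-LKO 1.58 ± 0.547 CPM; log2 fold change -2.06, SE 0.45, edgeR adjusted p = 0.0242) , and leaving out WT 164, WT 165, E4bp4-LKO 143, 144 or 145 ended the call (adjusted p up to 0.0747). Of 18 genes for esterification to glycerolipids, 2 rose, 0 fell and 16 did not pass, with a median of 0.01. Acsl1, which activates fatty acids to acyl-CoA, rose (WT 1050.0 ± 339, E4bp4-LKO 1999 ± 375 CPM; log2 fold change 0.93, SE 0.22, edgeR adjusted p = 0.0275). Agpat2, which makes phosphatidic acid, rose (WT 241 ± 27.9, E4bp4-LKO 324 ± 19.4 CPM; log2 fold change 0.43, SE 0.10, edgeR adjusted p = 0.0232). Leaving out WT 165 or E4bp4-LKO 144 ended both calls (up to 0.0849 for Acsl1 and 0.0729 for Agpat2), and leaving out E4bp4-LKO 145 or 179 ended that of Acsl1.

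Of 16 insulin signalling genes none passed by edgeR, 1 had an unadjusted p under 0.05 and DESeq2 called 1 higher. The median was 0.11 and 14 of 16 estimates were above 0, beside 6847 of 13240 over all genes tested. These estimates depend on the scaling, since the median over all genes was 0.01 with TMM and -0.15 on library totals. The smallest p was that of Rps6kb1, which encodes the S6 kinase (log2 fold change 0.25, edgeR adjusted p = 0.0623). On library totals its log2 fold change was 0.087 (edgeR adjusted p = 0.544). Of 19 genes of cholesterol synthesis and uptake, which SREBP-2 drives, 1 rose, 0 fell and 18 did not pass, with a median of 0.00. The gene that rose was Stard4, a sterol carrier (WT 27.5 ± 3.79, E4bp4-LKO 38.1 ± 3.95 CPM, SD, n = 4; log2 fold change 0.47, edgeR adjusted p = 0.0226), which was not called when WT 165 (0.0644) or E4bp4-LKO 145 (0.0608) was left out, or on library totals (0.158).

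Genes raised by fasting and clock genes were listed because lipogenesis follows meals and the hour. Of 14 fasting genes, 2 fell, 0 rose and 12 did not pass, with a median of -0.06, beside 6.49% of all genes tested that fell. Igfbp1, which insulin represses, fell (WT 80.0 ± 15.1, E4bp4-LKO 27.9 ± 5.44 CPM, SD, n = 4; log2 fold change -1.52, SE 0.16, edgeR adjusted p = 0.00119) and passed without each liver in turn. Ppargc1a, a coactivator of gluconeogenic genes, fell (WT 12.8 ± 1.52, E4bp4-LKO 9.37 ± 1.31 CPM; log2 fold change -0.45, edgeR adjusted p = 0.0438), with overlap, and among the fits without 1 liver only those lacking WT 167 or E4bp4-LKO 145 called it (0.124 at most). Of 16 clock genes tested, 2 rose, 0 fell and 14 did not pass, with a median of 0.27 and 13 estimates above 0. Over all genes tested, 10.9% passed in either direction, 4.38% rose, and 6847 of 13240 estimates were above 0. The clock calls depended on the scaling, with 1 higher on library totals and 0 on log2(FPKM + 1). Bhlhe41, a clock repressor, rose (WT 3.33 ± 0.429, E4bp4-LKO 7.55 ± 3.03 CPM; log2 fold change 1.18, edgeR adjusted p = 0.0148). It was not called when WT 164 and 165 were both left out (0.0987), or by limma on log2(FPKM + 1) with no filter (0.0802). Tef, a D-box activator that competes with E4BP4 for its sites, rose (WT 184 ± 18.7, E4bp4-LKO 232 ± 18.5 CPM; log2 fold change 0.34, edgeR adjusted p = 0.0472), and among the fits without 1 liver only those lacking WT 167 or E4bp4-LKO 143 called it (0.116 at most). The Tef call was also lost on library totals (log2 fold change 0.19, edgeR adjusted p = 0.103) and in edgeR with no low-count filter (0.0520). Limma on FPKM did not call Tef either (0.0995 to 0.122). Whether feeding state or hour differed between the groups was not tested.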

How the data were processed

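Per the submitters' processing notes the reads were aligned with HISAT2; its version, the quantifier and the build were not stated there. Per the file headers the authors deposited, for each liver, an expected count per Entrez gene, not normalized. The authors' FPKM beside it is, by its definition, scaled to transcript length and library total. Genes missing from a table were read as 0, 26 isoform entries were joined to their gene by RefSeq accession, and entries without a name (at most 0.0451% of counts) were left out. Expected counts were rounded, filtered with filterByExpr (minimum count 10, minimum total 15), scaled by TMM and compared in R 4.3.3 with edgeR 4.0.16 (glmQLFit, robust, and glmQLFTest, two-sided, Benjamini-Hochberg over all genes tested, threshold 0.05). The SE is the log2 fold change over the square root of F. Alternatives used DESeq2 1.42.0, limma 3.58.1 (voom with quality weights; trend on log2(FPKM + 1) or log2(FPKM + 0.1)), other scalings and filters, and fits without single livers; the code was tested on simulated data. No block was fitted, since the mice share no number between groups. Named genes are the 10 members, Nfil3, and in each list up to 4 members with the smallest p that passed, or the 1 with the smallest p. Cell type markers are given by list. For likeness, the 6 genes with the highest Pearson r at a mean of at least 5 CPM were taken, and those not reported here were left out. Members and lists were chosen with earlier results of these data known. No 2 libraries were copies (lowest chi-square per degree of freedom, 7.52). A level of 3 counts is 0.0929 to 0.126 CPM and covers counting error only.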

Additional observations from a re-analysis of the deposited data

Results flagged for a closer look

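In 3 of the 22 groups of 4 livers examined (the 10 genes and Nfil3, each in WT and in E4bp4-LKO), 1 liver stood apart from the others by Dixon's criterion, which chance meets in about 1 of 20 groups. Fasn in WT 164 was 1936 CPM, and the nearest WT liver had 1002 CPM. Acly in WT 164 was 409.6 CPM, and the nearest WT liver had 199 CPM. Thrsp in WT 165 was 316 CPM, below the nearest WT liver at 472 CPM.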

How the results depend on the processing

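No paired analysis was possible because the groups share no mouse number. Genes called over the whole table numbered 1439 (59.7% of them lower), 2241 with DESeq2, 387 without WT 164 and 165 together, 2488 at an adjusted p under 0.1, and 506 to 1540 without 1 liver. Library totals gave 291 higher and 1662 lower genes (85.1% lower), and log2(FPKM + 1) gave 257 and 1402 (84.5% lower), against 580 and 859. Of the 10 lipogenesis genes, 3 were called higher, 1 to 4 without 1 liver (1 without WT 165 or E4bp4-LKO 144), and 0 lower in any fit. The median log2 fold change of the 10 ran from -0.07 to 0.27 without 1 liver, and was -0.041 on library totals and -0.092 on log2(FPKM + 0.1). Genes called over the lists around them numbered 12 (8 higher, 4 lower), 19 on library totals (4 higher, 15 lower) and on FPKM with either pseudocount (3 higher, 16 lower), 27 with DESeq2, 6 without WT 164 and 165 together, 25 at an adjusted p under 0.1, and 4 to 14 without 1 liver (4 when WT 165, 5 when E4bp4-LKO 144 and 6 when E4bp4-LKO 145 was left out). The median correlation among the 10 genes, 0.36, ran from 0.26 to 0.50 without 1 liver. None of the enzymes was called in any fit. Acaca stayed below 0, at -0.29 to -0.10 without 1 liver and -0.38 to -0.052 in the other fits. The other enzymes changed sign as follows. Acly was 0.050 with voom, 0.17 without WT 164 and 165 together, and -0.34 to 0.18 without 1 liver. Fasn was 0.12 and 0.17 in the same fits, and -0.22 to 0.25 without 1 liver (0.25 without WT 164, 0.045 without E4bp4-LKO 179). Scd1 was -0.26 to 0.029 without 1 liver. Acacb was -0.013 on log2(FPKM + 1), with and without the filter, and -0.017 on log2(FPKM + 0.1). Me1 was -0.13 on library totals, -0.00060 with a filter at 5 CPM, -0.043 with voom, -0.17 in the 3 fits on FPKM, -0.029 when WT 164 and 165 were dropped, and -0.18 to 0.14 without 1 liver. The cause of these changes was not tested.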

Other observations

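The 10 genes did not vary as 1 block among livers of the same group. After each group's mean was subtracted, the median Pearson r of log2 CPM over the 45 pairs was 0.36 (8 livers, which share library depth and composition), 0.39 among the enzymes and 0.22 among the regulators. Acly and Fasn stood closest (r = 0.98, and 0.92 without WT 164), while Mlxipl ran against Me1 (r = -0.42) and Acly (-0.41). Outside the 10 genes, the mean profile of the set over the 8 livers was like those of Ltbp4 (r = 0.96), Mocos (0.94), Cav1 (0.93), Pi4k2a (0.92) and B4galt7 (0.90), none of which passed between the groups. With group means subtracted it was like those of Ccdc137 (0.99), Ctsd (0.97), Arhgap23 (0.97), Mocos (0.97) and Csf1 (0.96), of which Ctsd fell (log2 fold change -0.43, edgeR adjusted p = 0.0173) and Arhgap23 rose (0.31, 0.0435) between the groups. The genes outside the 10 were picked for the highest r among 9649 genes, and so wide a search over 8 livers gives high values by selection. These are descriptions over 8 livers with no test.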
